A study of Mus musculus with 44 samples.

Results

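Bone marrow-derived macrophages (BMDMs) from NCoR-deficient (NKO) mice that had received Kdo2 lipid A (KLA) for 6 h were compared with 4 separate groups of NCoR-sufficient BMDMs under the same stimulus. All 5 groups hold 2 libraries, so the comparison uses 10 of the 44 libraries of the series. The NKO_KLA mice were NCoR flox/flox carrying LysMCre. The control groups were WT_KLA (NCoR flox/flox without Cre), KLA (wild type), Pgc1b_flox_KLA (Pgc1b flox/flox without Cre) and DMSO_KLA (wild type, the vehicle arm of an inhibitor series). LysMCre drives Cre from the lysozyme gene Lyz2 in myeloid cells, so deletion depends on Cre activity in each BMDM culture and can be partial. Per the study's methods the mice were C57BL/6 and 8 to 12 weeks old, and marrow was differentiated with macrophage colony-stimulating factor. Genes entered the comparison if their transcript was listed in all 4 deposited count tables, lay on an autosome and passed a filter on low counts, which left 10532 of 22292 autosomal transcripts. A gene was called when it differed by more than 1.5-fold at an adjusted p below 0.05 (edgeR quasi-likelihood test with Benjamini-Hochberg adjustment), and it is said to hold when it was called in one direction against all 4 controls.

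NCoR, encoded by Ncor1, is a nuclear corepressor that brings the histone deacetylase HDAC3 to chromatin, and unliganded nuclear receptors such as the liver X receptors (LXRs) are among its partners. KLA is the purified lipid A moiety sensed by Toll-like receptor 4 (TLR4). In macrophages TLR4 signals through MyD88 and TRIF adaptors to NFκB, AP-1 and interferon regulatory factors, which induce cytokines, chemokines and type I interferon.

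The NKO_KLA libraries stood apart from the controls in more than genotype. The date stamps in the column headers give both NKO_KLA libraries 1 date and put the controls 1401 to 1644 days later, each control group with a stamp of its own. The NKO_KLA headers also follow another naming scheme and carry other initials than those of the controls. In every KLA contrast below, the batch and the genotype thus cannot be told apart. Gene counts per library were 16783155 and 15088981 in NKO_KLA and 8323493 to 14554853 in the controls. They made up 89.2% and 89.3% of mapped reads in NKO_KLA and 86.2% to 86.9% in the controls. Y-linked genes took 924 and 501 counts in NKO_KLA and 1541 and 1336 in Pgc1b_flox_KLA, and at most 1 count elsewhere. By these counts the sex of the mice differed between groups. Against WT_KLA, KLA and DMSO_KLA, sex too cannot be told apart from genotype. Only autosomal genes were kept. Cell type markers are given in CPM relative to total gene counts, with no further scaling. Summed over 9 macrophage markers, CPM was 11320 to 11340 in NKO_KLA and 13420 to 17860 in the controls. Lyz2, the host locus of the Cre, was the 1 marker of the 9 that held, at 2316 and 2374 against 4292 to 7187. Other members went both ways. Cd14 and Adgre1 lay below every control library, Cd68 and Fcgr1 above every one, and the rest within the control range. Summed CPM of 10 neutrophil markers was 19 to 20.5 in NKO_KLA and 11.5 to 16.4 in the controls, and the neutrophil collagenase Mmp8 made up most of it and was the 1 member called, higher. S100a8 was at 1.03 and 1.50 CPM against 1.56 to 4.68, and Ly6g and Elane were at 0 in both NKO_KLA libraries. T cell markers summed to at most 6.02 CPM, B cell markers to at most 1.81 CPM and erythroid markers to at most 0.129 CPM in any of the 10 libraries. Mast cell and basophil markers summed to 0.257 to 0.716 CPM in NKO_KLA and 1.28 to 2.75 CPM in the controls, with 1 called lower, and stromal markers to 5.01 to 6.18 CPM in NKO_KLA and 0 to 37.45 CPM in the controls. The part of these differences in the results below was not tested. In bulk RNA, fewer cells that express a gene and less of its RNA per cell cannot be told apart.

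Ncor1 itself (mm10 chr11:62316426-62438515, minus strand) was at 49.5 and 45.6 CPM in NKO_KLA. It was at 167 and 170 CPM in WT_KLA, 169 and 156 CPM in KLA, 138 and 134 CPM in Pgc1b_flox_KLA and 132 and 138 CPM in DMSO_KLA. CPM from here on is the count relative to library size, with library sizes scaled by the trimmed mean of M values (TMM). Every NKO_KLA value lay below every control value, by 2.83-fold to 3.54-fold (log2 fold changes −1.82, −1.77, −1.52 and −1.50 in the order of the controls above, each with SE 0.07, largest adjusted p 1.17e-26, edgeR). Counts cover the whole transcript, so they do not separate floxed exons from the remainder. Lyz2, the host locus of the Cre, was at 2359 and 2419 CPM in NKO_KLA and at 4567 to 7259 CPM (median 6143) in the 8 control libraries, a fall of 1.99-fold to 3.00-fold. Among the partners of NCoR, Tbl1xr1, a WD40 subunit of the corepressor complex, rose by 1.54-fold to 2.09-fold, a call lost without NKO_KLA replicate 1 (log2 fold change 0.58 against its nearest control). The deacetylase Hdac3 had log2 fold changes of 0.28 to 0.56, past the threshold against no control. Of 5 genes listed for the complex, 1 fell and 1 rose, where 11.7% and 8.81% of all genes did.

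Against WT_KLA, 2329 genes were lower (22.1% of those tested) and 2226 higher (21.1%). Against KLA the counts were 2453 lower (23.3%) and 2493 higher (23.7%). Against Pgc1b_flox_KLA they were 2153 lower (20.4%) and 1759 higher (16.7%), and against DMSO_KLA 2341 lower (22.2%) and 2050 higher (19.5%). Of these, 1232 genes were lower against all 4 controls (11.7%) and 928 higher against all 4 (8.81%). The 4 contrasts share the 2 NKO_KLA libraries, so a gene that holds against all 4 has not been seen 4 independent times. Of the genes that held, 1230 of the 1232 lower genes were below all 8 control libraries and 928 of 928 higher genes above them, whereas 26.2% of all tested genes lay below and 25.5% above all 8. The log2 fold change nearest to 0 had a median of −0.96 among the lower and 0.88 among the higher genes, and it passed 2-fold in 563 and 370 of them. A further 179 genes (1.7%) were called in opposite directions by different controls.

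The spread between control groups gave a second yardstick, though only for differences among these groups. Their date stamps lie 1401 to 1644 days after that of NKO_KLA, nearer to each other than to it. This spread therefore does not measure what the earlier batch adds. When WT_KLA was compared with each of the other 3 controls in the same way, 160 genes (1.52%) held, and the same count was 170 (1.61%) for KLA, 243 (2.31%) for DMSO_KLA and 754 (7.16%) for Pgc1b_flox_KLA. NKO_KLA against those same sets of 3 controls gave 2284 to 2969 genes (21.7% to 28.2%). With the counts of each group summed, so that the 4 control groups supply the error, edgeR called 643 genes lower (6.11%) and 505 higher (4.79%). An exact permutation of 1 date stamp against 4 cannot give a p below 0.2, so no single gene can pass such a test. The test on summed counts takes NKO_KLA, with 1 date stamp, to vary like the controls, which cannot be checked here. The plot of call counts sets the contrasts side by side.

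**Figure D1:**
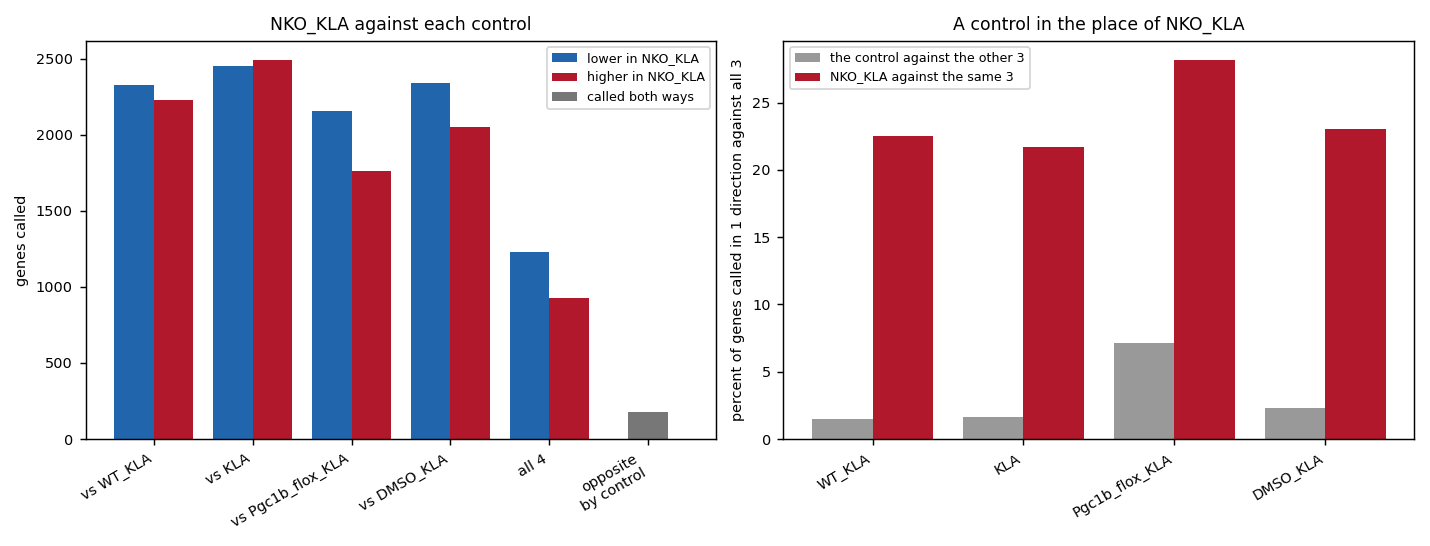
Number of autosomal genes called in NKO_KLA against each control, against all 4 and in opposite directions (left), and percent of genes that separate each control group from the other 3 controls beside the percent that separate NKO_KLA from the same 3 (right). NKO_KLA differed in 21.7% to 28.2% of genes, and the control group that differed most, Pgc1b_flox_KLA, in 7.16%. Genotype and an earlier date stamp both separate NKO_KLA from the controls.

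Calls followed base composition. Genes were split into 5 equal bins by GC content of the transcript. In the lowest bin (28.6% to 44.5%), 30.7% were lower and 2.15% higher against all 4 controls, and in the highest bin (55.9% to 82.9%) 2.77% were lower and 17% higher. The median log2 fold change from the lowest to the highest bin ran from −0.69 to 0.50 against WT_KLA, −0.75 to 0.54 against KLA, −0.56 to 0.32 against Pgc1b_flox_KLA and −0.48 to 0.24 against DMSO_KLA. Control groups also differed by GC content. The widest run was that of KLA against DMSO_KLA, from 0.27 in the lowest bin to −0.32 in the highest. Between control groups, no bin had a median beyond 0.32 from 0. After the trend with GC content was taken out of each library, a setting added after the data had been seen, 796 genes were lower (7.56%) and 696 higher (6.61%), of which 612 and 516 were among the 1232 and 928. The bins then held 6.88% to 7.93% lower and 5.06% to 7.59% higher genes. In the plot of calls by GC bin the slope of every NKO_KLA contrast is visible. Whether GC content shapes the calls through the libraries or through the genes was not tested. Some calls that depend on this setting are named in the gene groups that follow, but not all of them.

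**Figure D2:**
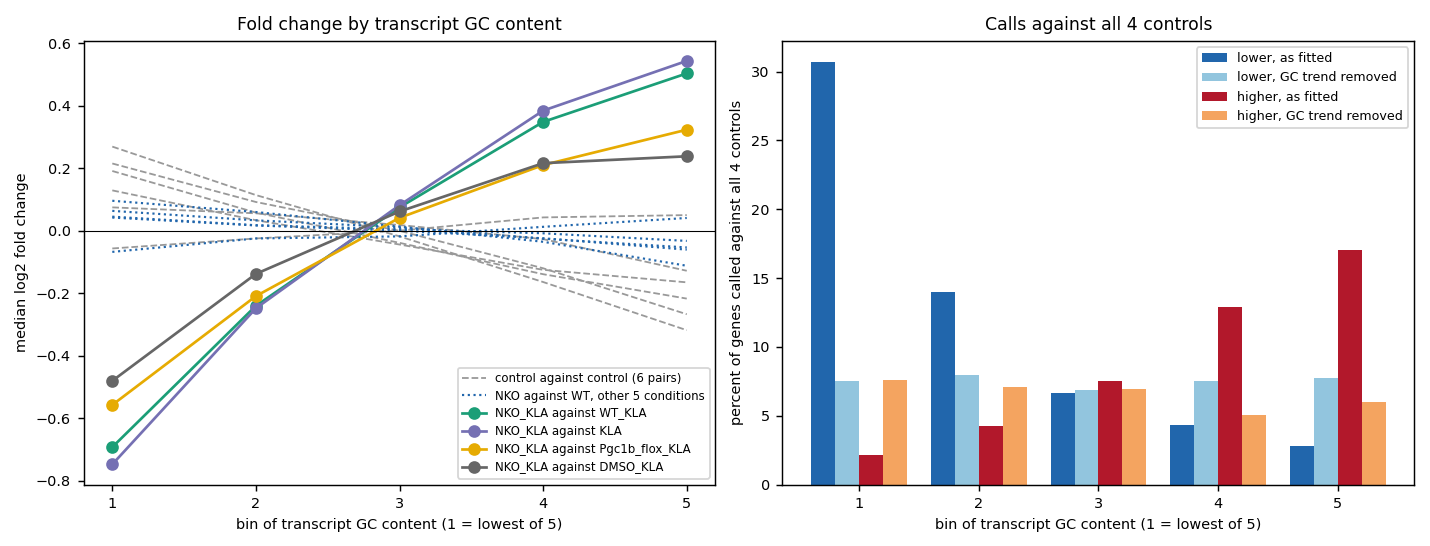
Median log2 fold change by bin of transcript GC content, 5 bins of equal size, for the 4 NKO_KLA contrasts and other pairs (left), and percent of genes lower or higher against all 4 controls in each bin before and after the GC trend was removed (right). The share of lower genes falls from 30.7% to 2.77% from the lowest to the highest bin, and with the trend removed it lies between 6.88% and 7.93%.

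Calls also followed sequence that a gene shares with other genes. Where at least 50 percent of a gene's sampled 31-base words occur in another gene's transcripts, 22.2% of genes were lower against all 4 controls, as compared with 8.4% of genes with no shared words, and with the GC trend removed these shares were 19.4% and 6.72%. Ribosomal protein genes, which have many processed pseudogene copies, are the extreme case and were listed after their values were seen. Of 63 tested, 21 were lower and 2 higher against all 4 controls, where 11.7% and 8.81% of all genes were. Of the 63, 55 share 10% or more of their words. Rpl35 had 3 and 0 counts in NKO_KLA and 196 to 582 counts in the control libraries. At the 5 other conditions described below, NKO differed from WT in 1 ribosomal protein gene at most. There, 1.91% to 6.83% of all genes were lower and 1.82% to 5.41% higher. Values of such genes are uncertain, since reads from near-identical copies can be split by alignment and counting. Leaving out all genes that share 10% or more left 829 lower and 707 higher genes, and with the GC trend removed as well 525 and 512.

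The study names Ptgs2, Cp and Il12a for attenuated responses to KLA in NKO cells. It names Abca1 and Scd2 for another condition, as LXR targets derepressed in NKO cells with vehicle. Of these 5 genes, Ptgs2, Il12a and Abca1 were lower against all 4 controls under KLA, and Cp and Scd2 were not. Ptgs2, the inducible cyclooxygenase, was at 916 and 850 CPM in NKO_KLA, 4089 and 4160 in WT_KLA, 5696 and 6423 in KLA, 6960 and 7625 in Pgc1b_flox_KLA and 5108 and 5803 in DMSO_KLA. The groups did not overlap, and the fall was 4.67-fold to 8.26-fold (log2 fold changes −2.22, −2.78, −3.05 and −2.63, each with SE 0.06). It also passed the test on summed counts (adjusted p = 0.0148, edgeR) and kept a log2 fold change of −1.34 nearest to 0 with the GC trend removed. Il12a, the p35 subunit of interleukin 12, was at 1.97 CPM in both NKO_KLA libraries, at 8.39 and 9.04 CPM in WT_KLA and at 31.1 to 54.0 CPM in the other 6 control libraries. Its fall was thus 4.41-fold against WT_KLA and up to 25.8-fold against KLA, so its size depended on the control. Cp, which encodes the copper oxidase ceruloplasmin, was at 118 and 110 CPM in NKO_KLA and at 112 and 113 CPM in Pgc1b_flox_KLA (log2 fold change 0.02 ± 0.06 SE, edgeR adjusted p = 0.813). It was lower against the other 3, which were at 309 to 919 CPM. Scd2, a stearoyl-CoA desaturase, was at 22.7 and 24.8 CPM and passed the threshold only against DMSO_KLA (52.9 and 48.9 CPM). The plot of single libraries shows these genes together with those of the following paragraphs.

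**Figure D3:**
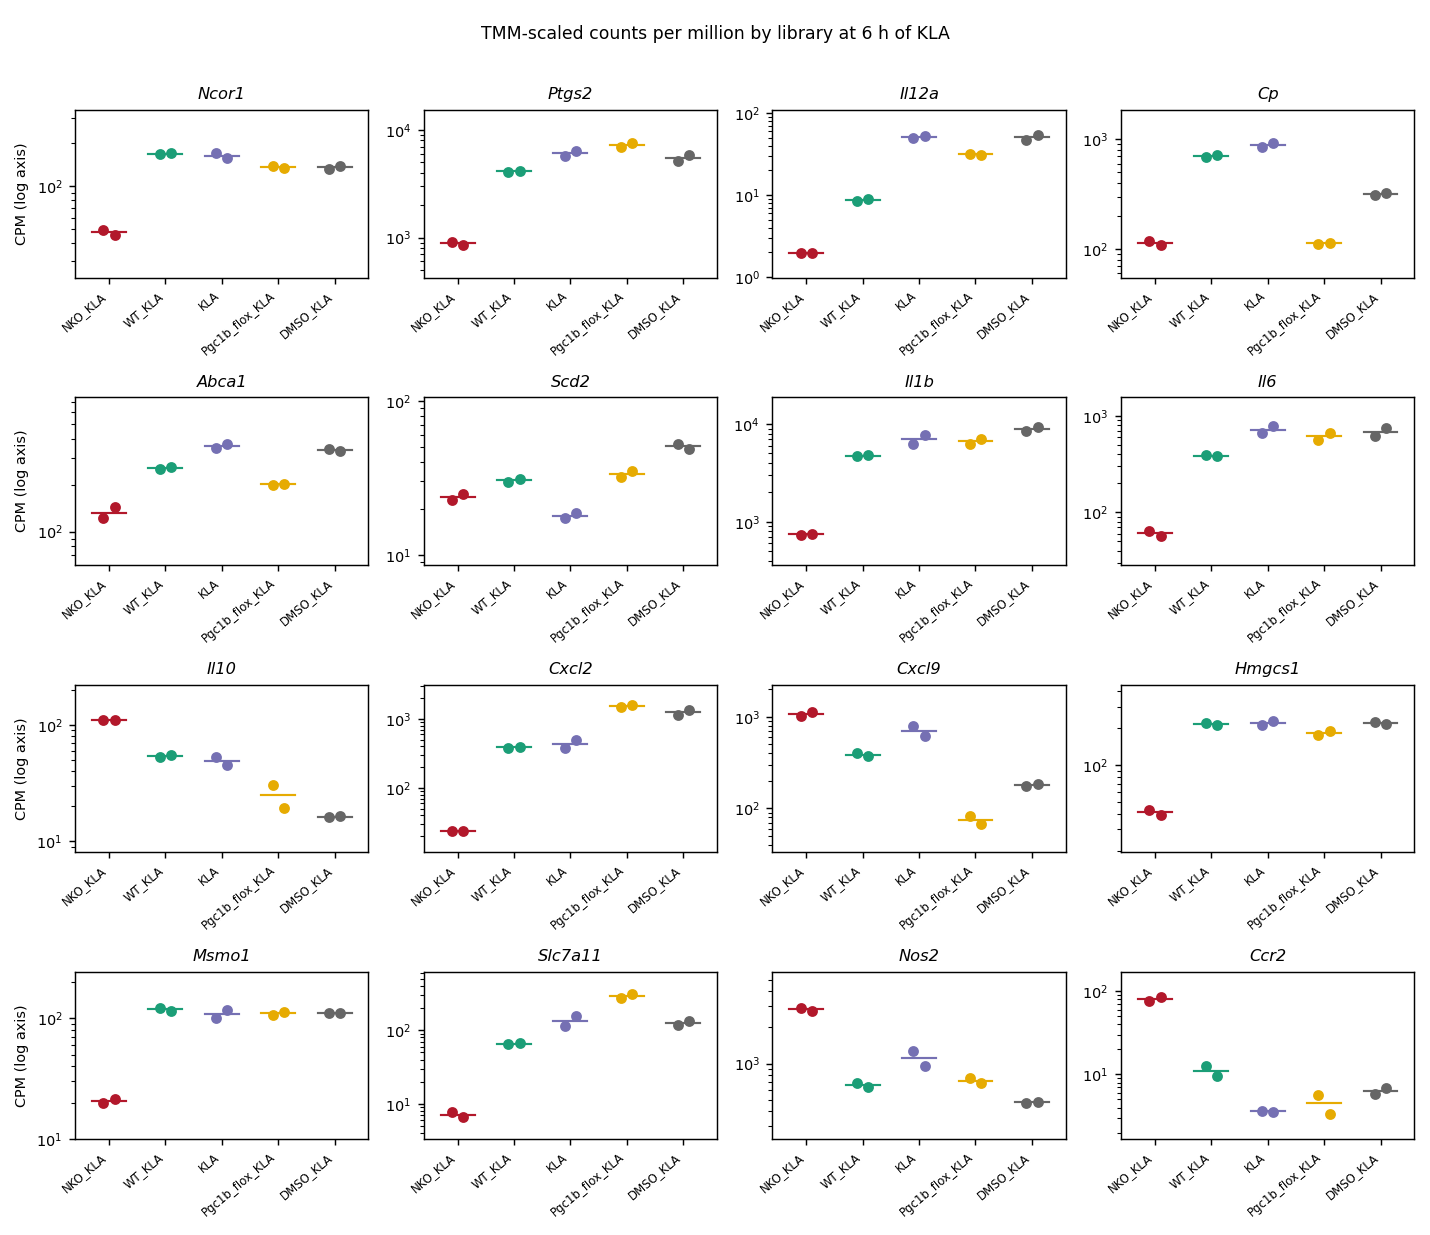
TMM-scaled CPM of 16 genes in the 10 KLA libraries on a log axis, with a dot for each library and a line at the mean of each group. Ptgs2, Il1b, Il6, Cxcl2, Hmgcs1, Msmo1 and Slc7a11 lie below every control library in both NKO_KLA libraries, Il10, Cxcl9, Nos2 and Ccr2 lie above, and Cp lies level with Pgc1b_flox_KLA.

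TLR4 itself and most of its proximal signalling genes did not hold, though the list as a whole leaned lower. Of 19 genes for the receptor complex and adaptors, 5 were lower and 1 higher against all 4 controls, where 11.7% and 8.81% of all genes were. With the GC trend removed 4 were lower and 0 higher, where 7.56% and 6.61% of all genes were. The median log2 fold change of the 19 was −0.44, −0.56, −0.36 and −0.50 in the order of the controls. With the GC trend removed it was −0.29, −0.22, −0.10 and −0.30. The members that fell in both settings were Tirap, the bridging adaptor of MyD88 (16.4 and 19.8 CPM against 38 to 59.2 in the controls), the kinase Irak2 (197 and 188 CPM against 322 to 463) and Irak3, a kinase-like inhibitor of the pathway (55.0 and 53.4 CPM against 131 to 248). Tlr4 was at 66.8 and 69.7 CPM and was called against 3 controls, but not against DMSO_KLA (75.8 and 81.9 CPM, log2 fold change −0.21 ± 0.08 SE). Myd88 had log2 fold changes of 0.15 to 0.69 and Traf6, a ubiquitin ligase downstream of MyD88, of −0.50 to −0.19. Among 19 NFκB subunits and feedback inhibitors, 1 was lower and 1 higher, below the shares of 11.7% and 8.81% over all genes, and 3 and 0 with the GC trend removed (edgeR), Nfkb2 and Tnip1 being the additional ones. Nfkbid, a nuclear IκB protein, fell by 1.65-fold to 3.00-fold, while the subunit Rela had log2 fold changes of −0.59 to −0.14 and the IκBα gene Nfkbia of −0.17 to 0.32. Dusp1, a phosphatase that dampens p38 signalling, rose by 1.86-fold to 4.38-fold, a call that was lost when the GC trend was removed (log2 fold change 0.53). Of 14 AP-1 and ATF genes tested, 1 fell and 2 rose, where 11.7% and 8.81% of all genes did. With the GC trend removed 2 fell and 1 rose, where 7.56% and 6.61% of all genes did. Maff fell (6.36 and 4.67 CPM against 12.5 to 28.0) and Jun rose (111 and 128 CPM against 41.2 to 59.0) in both settings, and Jund fell only with the trend removed (log2 fold change −0.78 nearest to 0).

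Inflammatory cytokines, which these factors induce, made up a group with more falls than rises. Of 19 tested, 7 fell and 1 rose against all 4 controls, where 11.7% and 8.81% of all genes did, and 8 and 1 did so with the GC trend removed. The median log2 fold change of the 19 was −1.15 against WT_KLA, −1.49 against KLA, −2.26 against Pgc1b_flox_KLA and −1.97 against DMSO_KLA, where the median of all tested genes was 0.024, 0.022, −0.025 and −0.024. Il6 was at 63.6 and 57.2 CPM in NKO_KLA, 390 and 389 in WT_KLA, 669 and 781 in KLA, 570 and 667 in Pgc1b_flox_KLA and 616 and 748 in DMSO_KLA. Il1b was at 727 and 758 CPM in NKO_KLA, 4678 and 4797 in WT_KLA, 6313 and 7795 in KLA, 6325 and 6998 in Pgc1b_flox_KLA and 8437 and 9367 in DMSO_KLA. Both fell by 6.4-fold or more against every control (6.43-fold and 6.38-fold at the least and 12.0-fold at the most for each) and passed the test on summed counts (adjusted p = 0.0134 for Il6 and 0.0137 for Il1b, edgeR). With the GC trend removed the log2 fold change nearest to 0 went from −2.69 to −1.32 for Il6 and from −2.67 to −2.40 for Il1b. Tnf was at 726 and 742 CPM against 1606 to 3469 (median 2556). Il1a was at 151 and 169 CPM against 642 to 3125, with the WT_KLA libraries lowest among the controls. Il12b, the p40 subunit that Il12a and Il23a pair with, was at 105 and 109 CPM against 242 to 864, a fall of 2.27-fold against WT_KLA and of 7.72-fold against Pgc1b_flox_KLA. Ifnb1, the TRIF-dependent type I interferon, was at 1.51 and 1.17 CPM against 3.63 to 6.80. Of the 7 that fell, 4 passed the test on summed counts, and Il1a, Il12a and Il12b did not (adjusted p = 0.0633, 0.084 and 0.145, edgeR). Il23a differed by control, since WT_KLA had 0.129 and 0 CPM where the other controls had 2.18 to 7 and NKO_KLA 0.459 and 0.0729.

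Il10, an anti-inflammatory cytokine of the same response, moved the other way. It was at 110 and 111 CPM in NKO_KLA, 53.4 and 54.9 in WT_KLA, 52.9 and 45.1 in KLA, 30.7 and 19.4 in Pgc1b_flox_KLA and 16.3 and 16.4 in DMSO_KLA. The rise was 2.04-fold to 6.76-fold (log2 fold changes 1.03 ± 0.11, 1.18 ± 0.11, 2.13 ± 0.12 and 2.76 ± 0.13 SE, largest adjusted p 1.03e-08, edgeR). It did not pass the test on summed counts (adjusted p = 0.134), in which the spread among the 4 controls is the error.

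Chemokines moved in both directions. Of 20 tested, 4 fell and 4 rose, where 11.7% of all genes were lower and 8.81% higher, and the numbers were the same with the GC trend removed, with Ccl12 in place of Cxcl14. Those that fell were Cxcl1, Cxcl2 and Cxcl3, ligands of the neutrophil receptor CXCR2, and Ccl3, a CCR1 ligand. Cxcl2 was at 23.5 and 23.7 CPM in NKO_KLA, 381 and 393 in WT_KLA, 383 and 500 in KLA, 1510 and 1591 in Pgc1b_flox_KLA and 1148 and 1350 in DMSO_KLA. The fall was 16.4-fold to 65.7-fold, and the controls themselves spanned 381 to 1591 CPM (summed counts, edgeR adjusted p = 0.0507). Cxcl1 was at 3.41 and 2.11 CPM against 14.5 to 146 and Cxcl3 at 1.18 and 1.46 CPM against 12.2 to 355, each with the lowest control values in WT_KLA and KLA. The 4 that rose were Ccl8, a monocyte chemoattractant (71.0 and 69.4 CPM against 5.85 to 19.9), the CXCR3 ligands Cxcl9 and Cxcl11, and Cxcl14. Of its words, Cxcl11 shares 40.2% with other genes. In contrast to it, Cxcl9 shares 0.535%. Cxcl9 was at 1024 and 1122 CPM, 402 and 373 in WT_KLA, 798 and 610 in KLA, 83.0 and 67.3 in Pgc1b_flox_KLA and 178 and 186 in DMSO_KLA. It rose 14.2-fold against Pgc1b_flox_KLA but by 1.52-fold against KLA, and leaving out any 1 of 8 of the 10 libraries, all but KLA replicate 1 and NKO_KLA replicate 1, took it below the threshold (log2 fold change 0.43 to 0.58). Ccl2 was at 1370 and 1327 CPM, above 6 control libraries (216 to 434 CPM) and below both Pgc1b_flox_KLA libraries (1761 and 1606 CPM).

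The promoters of the 3 CXCR2 ligands and of Il6 are shown because an NFκB motif lies in each and all 4 genes fell. Each is the 250 bases before the RefSeq start site on GRCm38.p6, the assembly of mm10, read 5′ to 3′ on the gene's strand. Capitals mark matches to the NFκB motif GGANTTTCC and to the CCAAT box, both searched on both strands. Il6 and Cxcl1 were chosen after their values were seen.
Cxcl1, chr5:90890995-90891244, plus strand: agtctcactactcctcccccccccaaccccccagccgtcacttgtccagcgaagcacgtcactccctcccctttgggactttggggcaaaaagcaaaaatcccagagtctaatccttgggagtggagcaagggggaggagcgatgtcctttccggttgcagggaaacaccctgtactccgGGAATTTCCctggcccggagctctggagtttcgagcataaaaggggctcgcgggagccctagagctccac
Cxcl2, chr5:90903649-90903898, plus strand: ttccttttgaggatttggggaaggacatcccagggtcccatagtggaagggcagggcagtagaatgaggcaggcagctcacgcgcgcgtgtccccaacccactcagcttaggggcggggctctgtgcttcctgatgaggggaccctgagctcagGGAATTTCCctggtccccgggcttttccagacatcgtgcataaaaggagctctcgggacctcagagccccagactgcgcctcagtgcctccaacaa
Cxcl3, chr5:90785851-90786100, plus strand: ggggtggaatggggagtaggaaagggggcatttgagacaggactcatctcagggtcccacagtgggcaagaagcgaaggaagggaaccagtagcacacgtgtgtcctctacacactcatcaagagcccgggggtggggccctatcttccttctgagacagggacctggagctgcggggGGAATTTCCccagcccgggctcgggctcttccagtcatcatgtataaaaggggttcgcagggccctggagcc
Il6, chr5:30012864-30013113, plus strand: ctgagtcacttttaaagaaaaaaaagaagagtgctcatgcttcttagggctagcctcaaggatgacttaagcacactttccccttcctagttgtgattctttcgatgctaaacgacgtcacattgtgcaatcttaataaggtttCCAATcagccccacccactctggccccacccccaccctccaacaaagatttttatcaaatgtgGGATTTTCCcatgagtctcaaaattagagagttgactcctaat

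The motif GGANTTTCC occurred in 1.07% of 32851 promoters, in 1.25% of the 8177 tested genes with a promoter in the table, in 2.31% of the lower genes and in 1.59% of the higher genes. Among the 4 lower chemokines 3 had it, and among the 7 lower cytokines 2 did. Whichever way the genes moved, 4 of the 13 listed chemokines with a promoter had it, and 2 of the 13 cytokines. These are matches of letters and say nothing of binding.

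Among enzymes of the inflammatory mediators, 5 of 12 tested fell and the nitric oxide synthase rose, where 11.7% of all genes fell and 8.81% rose. With the GC trend removed 4 fell and 1 rose, where 7.56% and 6.61% of all genes did. The log2 fold changes of Arg2, Ptges2 and Gch1 were above 0 against every control (0.71 to 1.01, 0.19 to 0.61 and 0.03 to 0.22), though not called against all 4. Besides Ptgs2, Ptges, which makes prostaglandin E2 from its product, fell from 138 to 352 CPM in the controls to 63.1 and 63.3 CPM. Ass1, which recycles citrulline to arginine, was at 8.06 to 11.1 CPM against 26.4 to 48.0, but shares 51.0% of its words with other genes. Nos2 was at 2912 and 2762 CPM in NKO_KLA, 692 and 639 in WT_KLA, 1277 and 946 in KLA, 756 and 687 in Pgc1b_flox_KLA and 470 and 480 in DMSO_KLA. All controls lay below NKO_KLA, by 2.55-fold to 5.97-fold (summed counts, edgeR adjusted p = 0.0271, log2 fold change 1.02 nearest to 0 with the GC trend removed). Acod1, the itaconate synthase, was at 6011 and 6101 CPM against 8898 to 10780 and was called against 3 controls, but not against Pgc1b_flox_KLA (log2 fold change −0.56 ± 0.05 SE).

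Of 27 interferon-stimulated genes tested, 1 was lower and 6 higher against all 4 controls, where 11.7% and 8.81% of all genes were, and 4 were higher on summed counts. Their median log2 fold change was −0.02, −0.06, 0.35 and 0.21 in the order of the controls. With the GC trend removed 0 were lower (edgeR) and 1 higher, the transcription factor Irf8. Irf8 was at 1810 and 1914 CPM in NKO_KLA, 436 and 435 in WT_KLA, 724 and 554 in KLA, 577 and 492 in Pgc1b_flox_KLA and 343 and 332 in DMSO_KLA, a rise of 2.92-fold to 5.52-fold (summed counts, edgeR adjusted p = 0.0163). Irf7, Isg20, Oas3, Dhx58 and Bst2 also rose, by 1.52-fold at the least, but only before the GC trend was removed. Trim30a fell by 1.61-fold to 2.09-fold and had a log2 fold change of −0.04 nearest to 0 with the trend removed. Ifit1 and Rsad2, classical antiviral effectors, had log2 fold changes of −0.49 to −0.06 and −0.10 to 0.49.

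Cholesterol synthesis genes were lower in NKO_KLA, by like amounts against each control. Of 20 genes for sterol synthesis and uptake, 12 fell and 0 rose against all 4 controls, 12 and 0 with the GC trend removed (11 of them the same), and 11 fell in the test on summed counts. No gene of the 20 rose against all 4 by edgeR, and 1 was called higher in a single contrast, against KLA. Over all genes 11.7% fell and 8.81% rose against all 4, and 7.56% and 6.61% with the GC trend removed. The median log2 fold change was −1.50, −1.45, −1.35 and −1.66 in the order of the controls. Hmgcs1, the hydroxymethylglutaryl-CoA synthase that opens the pathway (mm10 chr13:119690351-119708260), was at 43.2 and 39.1 CPM in NKO_KLA, 222 and 213 in WT_KLA, 212 and 227 in KLA, 176 and 189 in Pgc1b_flox_KLA and 223 and 217 in DMSO_KLA. Its log2 fold changes were −2.40, −2.41, −2.15 and −2.42 (SE 0.07 each), and −1.69 nearest to 0 with the GC trend removed. Msmo1, the sterol-C4-methyl oxidase, was at 20.0 and 21.4 CPM in NKO_KLA, 121 and 115 in WT_KLA, 101 and 118 in KLA, 107 and 112 in Pgc1b_flox_KLA and 110 and 110 in DMSO_KLA. The control libraries spanned 101 to 121 CPM, and the fall was 5.29-fold to 5.72-fold (summed counts, edgeR adjusted p = 0.00465). Sqle, squalene epoxidase, was at 9.30 and 8.97 CPM against 41.8 to 57.5. Idi1, Fdps, Cyp51, Sc5d, Hsd17b7, Acat2 and the sterol carrier Stard4 fell by 2.16-fold at the least. Insig1, which holds SREBP in the endoplasmic reticulum, fell by 1.61-fold, a call lost with the GC trend removed. Acat2, Fdps and Idi1 share 42.7%, 27.75% and 25.7% of their words with other genes. Of the 14 genes of the list with under 10% shared words, 8 fell and 0 rose. Srebf2, which encodes the SREBP2 factor that drives these genes, had log2 fold changes of −0.75 to −0.08.

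Without KLA, the cholesterol genes went the other way in NKO BMDMs. NKO and WT (NCoR flox/flox) BMDMs had also been compared with vehicle, poly I:C, IFNβ, IL4 for 6 h each (1 shared date stamp) or RANKL for 12 h (another shared stamp), so the date stamp does not separate these genotypes. Of the 20 cholesterol genes, 0 were lower and 8 higher with vehicle, 0 and 5 with poly I:C, 0 and 11 with IFNβ, 0 and 12 with IL4, and 0 and 17 with RANKL (edgeR). The share of all genes called higher in those contrasts was 2.33%, 3.31%, 1.96%, 1.82% and 5.41%, and the share called lower 4.1%, 3.05%, 1.91%, 2.36% and 6.83%. Sqle had log2 fold changes of 1.2, 1.18, 1.06, 1.56 and 1.12 for NKO over WT in these conditions in the order given, and Hmgcs1 of 0.64, 0.63, 0.59, 0.79 and 1.31. For the opposite sign under KLA, the stimulus, the earlier date stamp of NKO_KLA and the sex of the mice cannot be told apart. Y-linked genes took 924 and 501 counts in NKO_KLA and 0 in the NKO and WT libraries of these other conditions. In the heat map of gene lists by condition, the cholesterol block changes colour at the line between the KLA contrasts and the others.

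**Figure D4:**
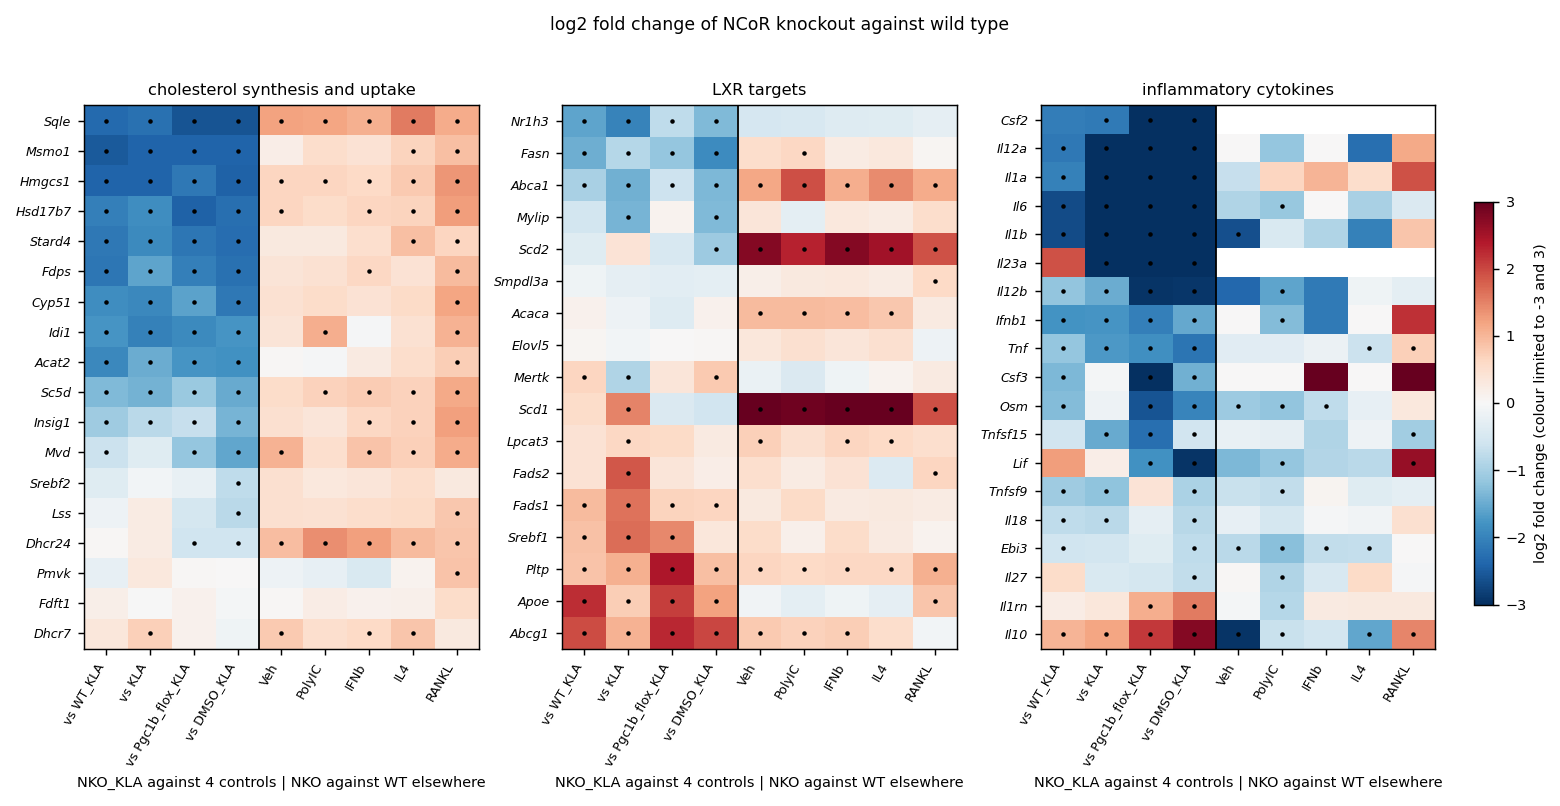
Log2 fold change of NKO over control for members of 3 gene lists, with the 4 KLA contrasts left of the line and vehicle, poly I:C, IFNβ, IL4 and RANKL right of it, colour limited to 3 in either direction, dots for called genes and white for genes not tested. The first panel draws 18 of the 20 cholesterol genes. Of the 20, 12 were lower in every KLA contrast, and 5 to 17 were higher in the other conditions.

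The promoters of Hmgcs1 and Msmo1 are printed for the motifs of this pathway, and both genes were chosen after their values were seen. Capitals mark the sterol regulatory element TCACNCCAC and the CCAAT box (its complement reads ATTGG), searched on both strands in the same 250 bases.
Hmgcs1, chr13:119690101-119690350, plus strand: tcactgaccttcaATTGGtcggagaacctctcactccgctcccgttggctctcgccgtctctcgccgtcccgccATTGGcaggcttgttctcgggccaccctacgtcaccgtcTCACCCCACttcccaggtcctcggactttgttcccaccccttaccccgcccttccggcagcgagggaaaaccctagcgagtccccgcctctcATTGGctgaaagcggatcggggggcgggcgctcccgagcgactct
Msmo1, chr8:64733579-64733828, minus strand: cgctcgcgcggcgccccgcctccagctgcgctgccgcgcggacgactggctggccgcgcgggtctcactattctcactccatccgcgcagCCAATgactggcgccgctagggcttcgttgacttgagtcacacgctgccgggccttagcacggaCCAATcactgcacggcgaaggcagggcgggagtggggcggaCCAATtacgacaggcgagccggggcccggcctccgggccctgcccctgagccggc

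The sterol motif was in 1.05% of all promoters and in 1 of the 13 cholesterol genes with a promoter, Hmgcs1. The CCAAT box was in 33.8% of all promoters, in 10 of the 13 and in 7 of the 8 that fell.

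LXR targets, which NCoR represses through unliganded LXR, were mixed under KLA. Of 17 tested, 3 were lower and 4 higher against all 4 controls, where 11.7% and 8.81% of all genes were. With the GC trend removed 2 were lower and 1 higher, where 7.56% and 6.61% of all genes were. Abca1, a cholesterol efflux transporter, was at 122 and 144 CPM in NKO_KLA, 256 and 261 in WT_KLA, 348 and 373 in KLA, 202 and 205 in Pgc1b_flox_KLA and 345 and 333 in DMSO_KLA. It was lower by 1.53-fold to 2.71-fold, but its log2 fold change nearest to 0 was −0.46 with the GC trend removed, and the call was also lost without NKO_KLA replicate 1 (−0.50). Abcg1, the partner transporter, was at 939 and 960 CPM against 190 to 498 and held in both settings, as did Fasn, the fatty acid synthase (28.3 and 27.9 CPM against 50.3 to 110), and Nr1h3, which encodes LXRα (34.1 and 31.6 CPM against 55.0 to 137). Apoe, Pltp and Fads1 rose by 1.57-fold at the least, but not with the GC trend removed. At the 5 other conditions 6 or 7 of the 17 were higher and 0 lower in NKO (edgeR). Of all genes, 1.82% to 5.41% were higher and 1.91% to 6.83% lower there. Abca1 then had log2 fold changes of 1.16, 1.92, 1.08, 1.41 and 1.12 and Scd2 of 2.76, 2.30, 2.74, 2.52 and 1.91.

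NRF2 targets, the antioxidant genes, fell or were not called. Of 11 tested, 5 fell and 0 rose against all 4 controls, with the same numbers after the GC trend was removed (edgeR). Over all genes 11.7% fell and 8.81% rose, and 7.56% and 6.61% with the GC trend removed. Of the 5, Gsr and Gclc passed the test on summed counts (adjusted p = 0.0176 and 0.0324), and Slc7a11 did not (0.0531). Slc7a11, the cystine importer, was at 7.67 and 6.71 CPM in NKO_KLA, 65.2 and 66.1 in WT_KLA, 113 and 155 in KLA, 273 and 310 in Pgc1b_flox_KLA and 119 and 132 in DMSO_KLA, a fall of 9.09-fold to 40.4-fold. Gsr, glutathione reductase, was at 42.9 and 44.6 CPM against 148 to 255, and Gclc, Txnrd1 and Srxn1 fell by 2.50-fold, 2.10-fold and 1.84-fold at the least. Hmox1 was at 409 and 331 CPM, above the 6 libraries of WT_KLA, KLA and DMSO_KLA in 1 replicate, and below Pgc1b_flox_KLA (995 and 1068 CPM). Without KLA, 0 of the 11 were lower in NKO in any of the 5 conditions (edgeR), and 0 to 4 were higher. Shares over all genes were 1.91% to 6.83% lower and 1.82% to 5.41% higher.

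Chaperones and amino acid stress genes moved apart. Of 10 heat shock genes 3 fell (Hspa8, Hsp90aa1 and the mitochondrial Hspd1) and 0 rose by edgeR, and Hspa1b was a further 1 that fell with the GC trend removed. Of their words, Hspa8, Hsp90aa1 and Hspd1 share 46.6%, 51.4% and 53.35% with other genes, so their values are uncertain. Of 13 genes for unfolded protein and amino acid stress, 4 rose and 1 fell in both settings. For both lists, the shares over all genes were 11.7% lower and 8.81% higher, and 7.56% and 6.61% with the GC trend removed. Ddit3 (CHOP) was at 36.6 and 32.1 CPM against 9.25 to 17.9, the glutathione-degrading enzyme Chac1 at 7.14 and 7.51 CPM against 0.574 to 1.57, and the pseudokinase Trib3 at 8.71 and 8.31 CPM against 0.779 to 4.02. The serine synthesis enzyme Psat1 rose as well. Ppp1r15a, a phosphatase subunit of the same response, fell (34.9 and 31.2 CPM against 79.4 to 129), and Atf4, the factor upstream, had log2 fold changes of 0.26 to 0.48.

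Glycolysis genes that held were all higher. Of 15 tested, 4 were higher and 0 lower against all 4 controls by edgeR (3 higher with the GC trend removed). Over all genes 8.81% were higher and 11.7% lower, and 6.61% and 7.56% with the GC trend removed. Ldha, lactate dehydrogenase A, was at 974 and 903 CPM against 228 to 547, with Pgc1b_flox_KLA highest among the controls, and the lactate exporter Slc16a3 at 235 and 207 CPM against 26.3 to 116. Pfkp, a phosphofructokinase, was at 672 to 711 CPM against 85.3 to 360. In the list for cell division and replication, the proliferation marker Mki67 fell (15.5 and 16.6 CPM against 47.5 to 117). The replicative helicase genes Mcm2, Mcm3 and Mcm5 rose, Mcm5 to 29.6 and 29.3 CPM from 5.14 to 16.9. Mcm4, Mcm6 and Mcm7 did not hold (log2 fold changes 0.41, 0.27 and 0.19 nearest to 0). Nor did Top2a (−0.93 to 1.48), Birc5 (−0.96 to 1.64), Aurkb (0.36 to 2.63) or Plk1 (0.002 to 2.37). The list gave 1 lower and 3 higher of 16, and the same numbers with the GC trend removed, with Mcm4 in place of Mcm3.

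The remaining lists held 1 to 3 calls each, where 11.7% of all genes were lower and 8.81% higher. Of 10 costimulatory and adhesion genes, Cd86 rose (280 and 276 CPM against 75.4 to 111) and Icosl, the ligand of ICOS on T cells, fell (17.9 and 21.7 CPM against 62.4 to 227). Of 10 matrix proteases and inhibitors, Mmp8 and Mmp19 rose and Mmp14 fell. Of 15 lysosomal genes 3 rose (Ctsl also with the GC trend removed), and of 7 tested genes for alternative activation 1, the lectin Clec10a, rose from at most 0.907 CPM to 1.44 and 1.97 CPM, a call lost in 5 of the 10 settings that leave out a library. The plot of gene lists gives these counts in both settings.

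**Figure D5:**
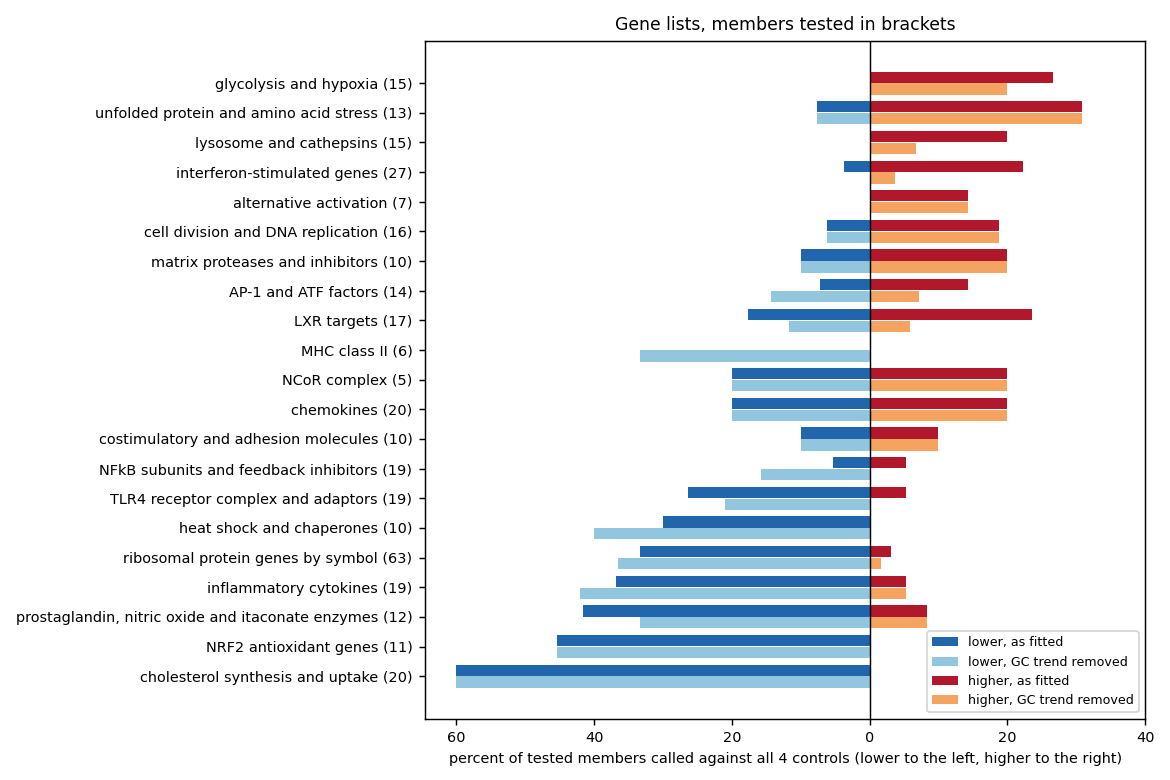
Percent of tested members lower (left of 0) and higher (right of 0) against all 4 controls for each gene list, before and after the GC trend was removed. Cholesterol synthesis (12 of 20 lower), NRF2 genes (5 of 11) and cytokines (7 of 19) keep their counts within 1 gene, and interferon-stimulated genes go from 6 higher of 27 to 1.

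MHC class II genes, which present antigen to T cells, varied between the controls. H2-Aa, a class II alpha chain, was at 28.9 and 30.2 CPM in NKO_KLA and at 25.7 and 30.3 CPM in Pgc1b_flox_KLA, and at 69.6 to 467 CPM in the other controls. Of 6 tested, 6 were lower against WT_KLA and against KLA and 0 against Pgc1b_flox_KLA (edgeR, log2 fold change of H2-Aa 0.09 ± 0.09 SE). No class II gene held against all 4 controls by edgeR, but H2-Ab1 and H2-DMb1 did with the GC trend removed (log2 fold changes −0.76 and −0.74 nearest to 0). H2-Eb1 was among the 179 genes of opposite sign, with 25.0 and 24.6 CPM in NKO_KLA, 12.8 and 11.4 in Pgc1b_flox_KLA and 42.8 to 252 in the others. In Adam19, Arhgef18 and Gdf3 the group of the opposite sign was again Pgc1b_flox_KLA. Ifi208, an interferon-inducible gene with a near-identical family, was at 2.82 and 3.65 CPM in NKO_KLA, below 1 CPM in WT_KLA and DMSO_KLA and at 214 to 315 CPM in KLA and Pgc1b_flox_KLA.

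The genes that fell furthest were mostly of low sequence uniqueness. By the smallest of the 4 log2 fold changes, the 12 first included Gm5148, Rpl35, Rpl19, Mir6963, Cxcl2, Rps25, Rpsa, Gabarapl2, Cxcl3 and Slc7a11. Gm5148 had 0 counts in both NKO_KLA libraries and 98 to 273 in the controls, which is at least 48.3-fold lower when a floor of 3 counts per library stands for 0. When genes were restricted to those with under 10% shared words and at least 250 bp, a rule added after the values were seen, Cxcl1, Il1b, Il6, Marco, Msmo1, Pdgfrb, Rasgrp1, Shisa3 and Tmem178 joined Cxcl2, Cxcl3 and Slc7a11. Marco, a macrophage scavenger receptor, was at 8.52 and 5.69 CPM against 39.1 to 96.2 (median 78.3), and passed the test on summed counts (edgeR adjusted p = 0.0155). Shisa3 was at 18 and 24.1 CPM against 126 to 472, and Rasgrp1, a Ras exchange factor, at 9.76 and 9.77 CPM against 45.9 to 95.7. Rasgrp1 was also lower in NKO with vehicle, poly I:C and RANKL (log2 fold changes −2.63, −1.10 and −1.85).

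The 12 genes that rose furthest included Gm13315, Il12rb1, Rgcc, Asap3, Sectm1a, Mir6236, Nup210, Dpy19l3, Aldoart2, Ccr2 and Olfml3, to which the restricted rule adds Gadd45g, Rom1 and Znrf3. Il12rb1, the β1 chain shared by the receptors for interleukins 12 and 23, was at 74.0 and 66.3 CPM in NKO_KLA, 1.68 and 2.62 in WT_KLA, 2.63 and 2.34 in KLA, 3.44 and 2.17 in Pgc1b_flox_KLA and 0.795 and 1.11 in DMSO_KLA. That was a rise of 24.5-fold to 73.0-fold (largest adjusted p 2.47e-31, edgeR), and 0.00374 was the adjusted p on summed counts. Ccr2, the monocyte receptor for CCL2, was at 76.7 and 85.8 CPM against 3.35 to 12.5. Gadd45g, a stress-induced growth arrest gene, was at 59.95 and 65.2 CPM against 5.03 to 9.66, and Rgcc, a regulator of the cell cycle, at 32.3 and 25.7 CPM against 0.786 to 1.68. Each of these 4 kept a log2 fold change of at least 2.41 with the GC trend removed. In NKO against WT with vehicle, Ccr2 had a log2 fold change of −0.86, and Gadd45g was higher (0.66).

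Few genes of any kind were called between NKO and WT in the other conditions. Shares among the genes that held under KLA are therefore set beside those of all genes. Of the 1232 lower genes, 55 (4.46%) were also lower with vehicle, 42 (3.41%) with poly I:C, 31 (2.52%) with IFNβ, 25 (2.03%) with IL4 and 53 (4.3%) with RANKL. The shares of all genes were 4.1%, 3.05%, 1.91%, 2.36% and 6.83%. Of the 928 higher genes, 27 (2.91%) were higher with vehicle, 33 (3.56%) with poly I:C, 27 (2.91%) with IFNβ, 20 (2.16%) with IL4 and 80 (8.62%) with RANKL. The shares of all genes called higher were 2.33%, 3.31%, 1.96%, 1.82% and 5.41%. Calls in the opposite direction were also present. With poly I:C, 64 of the lower genes (5.19%) were higher and 65 of the higher genes (7%) lower, where 3.31% and 3.05% of all genes were. With RANKL, 84 of the lower genes (6.82%) were higher and 104 of the higher genes (11.2%) lower, where 5.41% and 6.83% of all genes were. Of the 17 listed cytokines measured there, 10 were lower in NKO with poly I:C and 0 higher by edgeR. Over all genes 3.05% were lower and 3.31% higher. Among the 10 was Il12b (log2 fold change −1.59), and Ptgs2 was lower too (−1.12). In the other conditions the list had 4 lower and 0 higher with vehicle, 2 and 0 with IFNβ, 3 and 0 with IL4, and 1 and 3 with RANKL (edgeR). Shares over all genes, in the same order, were 4.1% and 2.33%, 1.91% and 1.96%, 2.36% and 1.82%, and 6.83% and 5.41%. In WT BMDMs poly I:C raised 24.8% and lowered 24.4% of all genes, and it raised 317 (25.7%) of the lower and 288 (31%) of the higher genes. On chromosome 11, 7 of 204 genes within 10 Mb of Ncor1 were lower (3.43%) and 15 higher (7.35%), where 11.7% and 8.81% of all genes were. Around Lyz2, 7 of 33 genes within 5 Mb were lower (21.2%) and 2 higher (6.06%), and within 10 Mb 8 of 64 were lower (12.5%) and 3 higher (4.69%).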

How the data were processed

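RNA-seq was measured in BMDM libraries made from poly(A) RNA with a strand-marking protocol. Per the study's methods and the labels, the authors aligned reads to mm10 with STAR and counted strand-specific reads in exons with HOMER, keeping the most abundant transcript of a gene, and used DESeq2. The 4 deposited tables hold these raw counts for each library, with no normalization. Reads of overlapping genes and near-identical copies may be split.

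Here the 10 KLA libraries were joined on transcripts listed in all 4 tables (23368, of which 1076 on X or Y were left out), filtered with filterByExpr and fitted together with edgeR 4.0.16 (R 4.3.3, TMM, robust quasi-likelihood). Adjustment was over all 10532 genes. Controls were also compared with one another, and summed counts of the 5 groups were tested. NKO and WT at 5 other conditions were fitted on the 24 libraries of their table, and 10498 genes were tested in both fits. Total gene counts were 8323493 to 16783155 per library, and the 3-count floor is 0.179 to 0.360 CPM before TMM scaling, for counting error only. The labels do not say which cultures or mice the replicates came from, so p-values measure the spread between the libraries, which may be technical. Replicates of a group differed by more than sampling noise (chi-square per degree of freedom 1.67 to 4.5). GC content and shared 31-base words came from the GENCODE annotation of GRCm38, with a GC value for 10470 genes, and promoters came from RefSeq, matched by symbol (84 of 114 named genes).

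Genes named were Ncor1, Lyz2 and the genes the study names, the 12 lower and 12 higher genes with the largest change against their nearest control (at least 5 CPM), up to 4 called members of each list in each direction, the 6 genes of opposite sign with the widest range, and others said to be chosen after their values were seen. Some genes that this rule names are not reported here. The members and gene lists were chosen with earlier results of these data known. Alternatives were another normalization, filter, tool, threshold, sample set and each library left out, with GC and shared-sequence settings added after the data were seen. The joint fit, the summed fit and the removal of the GC trend were run on simulated data, and the other steps were not.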

Additional observations from a re-analysis of the deposited data

Results flagged for a closer look

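For 5 of 7 genes tested, the difference between NKO and WT at KLA departed from the difference at vehicle by a test of the difference itself (edgeR interaction in the 24-library fit, with WT_KLA as the control). On the log2 scale the KLA difference minus the vehicle difference was −0.25 for Ncor1 (adjusted p = 0.023), −0.55 for Lyz2 (adjusted p = 0.00115), −0.95 for Cp (adjusted p = 0.0327), −2.08 for Abca1 (adjusted p = 1.25e-12) and −3.09 for Scd2 (adjusted p = 4.6e-09). It was −0.60 for Ptgs2 (adjusted p = 0.645), which did not pass, and Il12a was too low with vehicle for an estimate. Against poly I:C in place of vehicle it was −0.93 for Lyz2, −1.07 for Ptgs2, −2.02 for Cp, −2.85 for Abca1 and −2.63 for Scd2 (largest adjusted p 0.000401), while Ncor1 (−0.20, adjusted p = 0.0868) and Il12a (−0.95, adjusted p = 0.454) did not pass. NKO_KLA and WT_KLA carry date stamps of their own, and the other conditions share one. Y-linked counts were also seen in NKO_KLA but not in WT_KLA or in these other conditions. In each of these differences KLA, batch and sex thus cannot be told apart.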

How the results depend on the processing

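No gene that held against all 4 controls was called in the opposite direction against all 4 under any of the settings run. With the GC trend removed, 79 of the 1232 lower genes, Ly96 among them, and 0 of the 928 higher genes (edgeR) had a value of the opposite sign against 1 or more controls, none of which was called. The counts of 1232 lower and 928 higher genes were 1157 to 1283 and 821 to 924 when 1 library was left out, 1136 and 862 with DESeq2, 1197 and 974 with DESeq2 size factors, and 1194 and 941 without the low-count filter. The replicate numbers of the labels do not pair the samples (correlations of deviations −0.0119 to 0.044), and the fit with the replicate number as a block gave 1227 lower and 930 higher genes.

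Larger shifts were as follows. With the GC trend removed 796 genes were lower, and with shared-sequence genes left out as well 525 were lower and 512 higher. Without Pgc1b_flox_KLA 1417 were higher. With no fold threshold 2144 were lower and 1980 higher against all 4, 3376 higher against WT_KLA, 3396 lower and 3096 higher against Pgc1b_flox_KLA, 3551 lower and 3347 higher against DMSO_KLA, and 691 opposite by control, while a mean of 5 CPM left 100 of these and 126 genes that separate DMSO_KLA from the other controls. Summed counts gave 1335 lower and 914 higher genes with DESeq2, 1237 and 1321 with limma-voom and date stamp as random block, and 215 and 216 with the GC trend removed. NKO_Veh against WT_Veh gave 273 lower genes when fitted on its 4 libraries alone. The cause of these shifts was not tested, other than fewer genes or samples where the setting itself removes them. Of 114 named genes, 18 fell below the threshold with the GC trend removed, 4 with the length trend removed, 3 with depth thinned to 1 total and 1 with DESeq2.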
